A study of Mus musculus with 39 samples.

Results

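Myb, Sox4, Lef1, Bcl7a, Cd93, Kit and Flt3 are 7 genes grouped here as progenitor genes, though not all are limited to immature cells. Their levels were followed across 39 lymphomas of Eµ-myc mice. All probe sets that the array annotation assigns to these 7 genes were taken, 26 in all, and the probe set with the highest mean stood for the gene. The 7 genes are 7 of the 18193 genes that the arrays measured by name. Each tumour was hybridised to 1 array, and all 39 belong to a single group: mice of the Eµ-myc genotype, in which the immunoglobulin heavy chain enhancer drives Myc in B lineage cells, killed when ill or with signs of lymphoma. The tumours were snap frozen whole, so the RNA came from the malignant cells together with whatever other cells the tissue held. No treatment, second genotype or normal tissue was compared, ages were not given, and the labels leave unsaid whether any 2 tumours share a mouse. The p-values below therefore measure only the spread between these samples.

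MYB is a transcription factor that keeps progenitors dividing and is needed at several steps of early B cell development. SOX4, a high-mobility-group factor, is needed for the survival of pro-B cells, and LEF1, a DNA-binding partner of beta-catenin, acts in pro-B cells and in developing T cells. BCL7A is a small subunit of the BAF chromatin remodelling complex. CD93 is a C-type lectin of the cell surface (the AA4.1 antigen) that immature B cells carry and mature follicular B cells lose. KIT and FLT3 are related receptor tyrosine kinases, for stem cell factor and FLT3 ligand, that mark stem cells and multipotent progenitors. B lineage cells lose both once they are committed, while FLT3 remains on dendritic cells and their precursors. Myc-driven tumours of this strain are known to range from precursor B to mature B cell stages.

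The promoters of 3 members that the comparisons below turn on are shown, since Sox4 rose with Myb across the tumours and fell as Flt3 rose. Each line gives the 250 bases before the annotated transcription start from RefSeq (GRCm38.p6), read on the gene's own strand. RefSeq promoter entries matched 5 of the 7 members, Bcl7a and Cd93 being the others. Capitals mark matches, on either strand, of 6 short motifs.
Myb, chr10:21160985-21161234, minus strand: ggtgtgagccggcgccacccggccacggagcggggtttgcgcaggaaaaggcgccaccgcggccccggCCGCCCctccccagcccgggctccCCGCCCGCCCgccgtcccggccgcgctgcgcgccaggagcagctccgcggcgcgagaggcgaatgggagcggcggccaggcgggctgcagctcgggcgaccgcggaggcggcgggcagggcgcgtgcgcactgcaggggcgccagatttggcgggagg
Sox4, chr13:28953700-28953949, minus strand: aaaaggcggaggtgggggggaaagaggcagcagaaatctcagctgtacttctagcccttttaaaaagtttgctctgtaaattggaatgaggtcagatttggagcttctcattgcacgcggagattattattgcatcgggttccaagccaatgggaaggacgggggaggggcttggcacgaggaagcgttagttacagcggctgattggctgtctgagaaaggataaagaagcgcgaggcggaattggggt
Flt3, chr5:147400490-147400739, minus strand: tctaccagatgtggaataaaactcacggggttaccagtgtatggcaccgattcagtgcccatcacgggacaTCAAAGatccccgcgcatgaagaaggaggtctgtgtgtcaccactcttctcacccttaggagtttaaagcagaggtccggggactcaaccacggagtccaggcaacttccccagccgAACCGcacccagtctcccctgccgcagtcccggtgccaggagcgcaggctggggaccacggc
The motifs searched were the E-box of Myc and Max (CACGTG), the Myb core (AACNG), a SOX core (AACAAAG), the Lef1 and TCF core (CTTTGA), the Runx core (TGTGGT) and the GC box (GGGCGG). The Myb window was 81.2% G or C, against a median of 52.4% over 32851 promoter windows, and its capitals are 3 GC boxes on the other strand, a pair of which share bases. A GC box stood in 32.74% of all windows. The Sox4 window, at 50.8% G or C, held none of the 6 motifs. The Flt3 window held 1 Myb core, which 74.19% of all windows hold, and 1 Lef1 and TCF core on the other strand, which 13.83% hold. An E-box stood in 6.02%, the SOX core in 5.03% and the Runx core in 14.05% of all windows, and in none of the 3 shown. A match is a string of letters, and binding was not measured.

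The arrays differed little in scale, with medians between 5.61 and 5.78 on the deposited log2 scale, and no 2 arrays were identical. Markers shared by all B cells, such as Cd79a, part of the B cell receptor (median 9.39), and Pax5, the B lineage factor (median 7.66), were found in most tumours. Tumours 5, 6, 8, 19, 23 and 26 had a mean deviation of the pan B cell markers under -1, and tumour 2 had a Myc level of 8.19 against a median of 11.92. Tumour 2 also had the highest T cell, macrophage and mature B cell marker scores of all 39. The score is the mean over a list of each gene's deviation from its own mean, in log2. These 7 tumours go against the label of a Myc-driven B cell tumour in part, and values over the 32 others are given beside many of the results below.

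The 7 genes differed widely in how much they varied. Myb ranged from 5.88 in tumour 6 through a median of 11.69 to 12.53 in tumour 29, with a mean of 10.94 ± 1.68 (SD, n = 39), and its SD was higher than that of 99.0% of all genes. It was high in most tumours and much lower in a few: 5 tumours (1, 2, 6, 8 and 23) lay at 8.07 or below and the other 34 at 9.39 or above. All 3 Myb probe sets gave this pattern, with correlations of 0.99 or more. Sox4 spread evenly from 8.10 in tumour 12 through a median of 10.88 to 12.81 in tumour 21 (mean 10.71 ± 1.31, SD, n = 39), with no gap between high and low tumours. Of its 8 probe sets, a pair of dim ones did not follow the gene level closely (r of 0.13 and 0.30).

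Lef1 was low in most tumours and high in a minority. It ranged from 5.29 in tumour 23 through a median of 6.44 to 11.35 in tumour 31, with a mean of 6.96 ± 1.64 (SD, n = 39). After tumour 31 came tumour 3 at 9.82, tumour 29 at 9.51, tumour 15 at 9.46 and tumour 13 at 9.34, so that the high tumours formed a slope rather than a separate group. Bcl7a resembled Myb: it ranged from 7.47 in tumour 8 through a median of 11.16 to 12.03 in tumour 21 (mean 10.60 ± 1.31, SD, n = 39). It was at 9.34 or below in 9 tumours (1, 2, 5, 6, 8, 19, 23, 26 and 32) and at 10.48 or above in the other 30, with no tumour between. The low group held all 7 tumours that stood apart together with tumours 1 and 32.

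Cd93 spread without a break from 7.18 in tumour 8 through a median of 9.66 to 12.22 in tumour 20 (mean 9.69 ± 1.34, SD, n = 39). In the 7 tumours that stood apart it lay between 7.18 and 9.03, at the low end of its range. Kit was the least variable of the 7 genes: its SD of 0.84 was higher than that of 88.8% of all genes. It ranged from 4.64 in tumour 11 through a median of 5.46 to 8.92 in tumour 2, with a mean of 5.66 (n = 39). That median lay below the array medians of 5.61 to 5.78, so many tumours differed in Kit only at the dim end of the scale. Tumour 2 stood alone, followed by tumour 32 at 7.52 and tumour 27 at 6.88. The second Kit probe set, at 3.73 to 5.11, was also highest in tumour 2.

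Flt3 was near the bottom of its range in most tumours and very high in 5. It ranged from 5.52 in tumour 10 through a median of 6.29 to 11.72 in tumour 5, with a mean of 6.96 ± 1.50 (SD, n = 39), on its only probe set. Tumours 32, 22, 19 and 26 followed tumour 5, at 10.36, 10.07, 10.04 and 9.55. The next tumour, tumour 2, was at 8.48, and tumours 27 and 18 were at 8.17 and 7.85. Of the 5 Flt3-high tumours, 5, 19 and 26 were also among those with a pan B cell score under -1. Tumours 22 and 32 were not, but the pan B cell score of tumour 32 was low as well, at -0.74, against -0.07 in tumour 22.

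**Figure D1:**
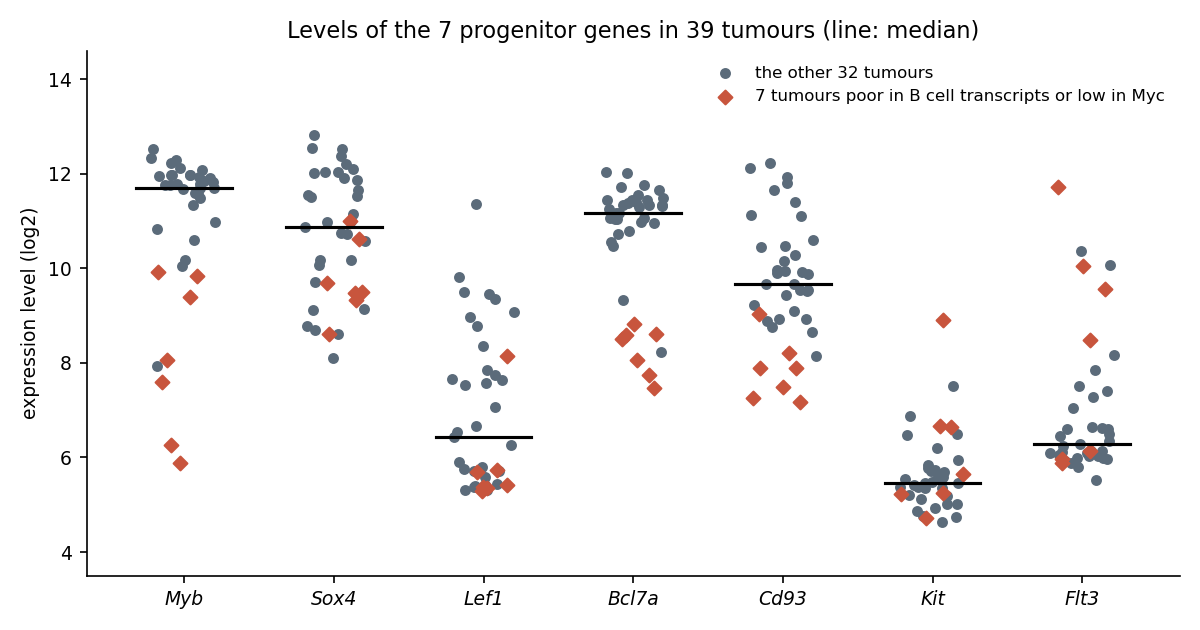
Levels of the 7 progenitor genes (log2, deposited scale) in the 39 tumours, 1 point per tumour and 1 column per gene, with the 7 tumours that stood apart marked as diamonds and the median as a line. Myb and Bcl7a are high in most tumours with a separate low group, Flt3 is low in most with 5 tumours between 9.55 and 11.72, and Kit has a single tumour at 8.92.

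The 7 tumours that stood apart did not lack all of the genes alike. Their median Myb level was 8.07 against 11.78 in the other 32 tumours, and their median Bcl7a level was 8.51 against 11.30. Cd93 had medians of 7.89 and 9.92, Sox4 of 9.50 and 11.07, and Lef1 of 5.41 and 6.87. Kit had nearly the same median in both, 5.65 and 5.46, while Flt3 had the higher median in the 7, 8.48 against 6.26. Without these 7 tumours the SD of Myb fell to 0.88 and that of Bcl7a to 0.73, whereas those of Sox4 (1.32) and Lef1 (1.66) stayed near their values over all 39.  In whole tumours, fewer cells of a type and less RNA per cell cannot be told apart.

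The tumours were compared along each progenitor gene by fitting every other gene along its level. The slope is the log2 change of the other gene per SD of the progenitor gene, and a gene was called where its limma adjusted p over all 18192 genes (Benjamini-Hochberg) was under 0.05. Along Myb 20.2% of all genes were higher and 21.0% lower, along Bcl7a 20.2% and 20.1%, along Cd93 12.3% and 12.1%, along Kit 10.0% and 12.1%, along Flt3 5.92% and 6.73%, along Sox4 5.4% and 4.86%, and along Lef1 0.0385% and 0.0165%. In the 32 tumours without those that stood apart the shares were 13.0% and 9.56% along Myb, and 12.0% and 9.22% along Bcl7a. There 2.28% were higher and 2.69% lower along Sox4, 0.676% higher along Cd93, 7.13% higher and 5.61% lower along Kit, and 5.01% higher and 2.33% lower along Flt3. A count of called genes in a list is to be read against these shares.

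The question of whether these genes form 1 programme was put to the 21 pairs. A pair was called where each of its genes was called along the other in limma. Of the 21 pairs, 11 were called. The called pairs formed a block of Myb, Sox4, Bcl7a and Cd93, in which all 6 pairs rose together, and a link between Kit and Flt3, which rose together. Between the blocks, Sox4, Bcl7a and Cd93 each fell as Flt3 rose, and Bcl7a fell as Kit rose. Lef1 was in no called pair.

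**Figure D2:**
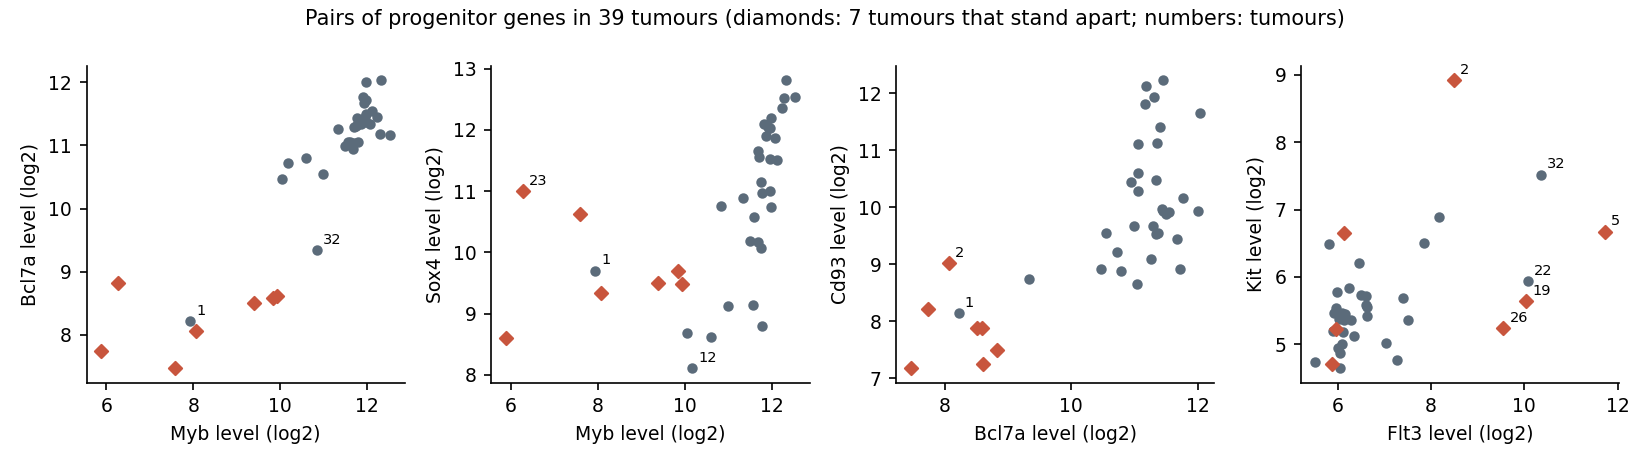
Levels (log2) of 4 pairs of progenitor genes in 39 tumours, 1 point per tumour, with the 7 tumours that stood apart as diamonds and some tumours numbered. Bcl7a and Sox4 rise with Myb also where Myb is above 9.39, Cd93 spreads from 8.66 to 12.22 where Bcl7a is above 10.48, and tumour 2 alone has Kit at 8.92.

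Because Myb, Bcl7a and Flt3 each fell into separate clusters of tumours, their correlations are given only within the larger cluster, so that the gap between clusters could not make the relation. Each r and rho comes with its 2-sided permutation p, in that order, and with r after leaving out the 2 tumours farthest from the median. Myb and Bcl7a had r = 0.73 and rho = 0.73 over the 30 tumours with both high (permutation p = 1e-05, the smallest that 100000 permutations give, and 3e-05, with r = 0.63 without tumours 12 and 27). Myb and Sox4 had r = 0.75 and rho = 0.82 over 34 tumours (permutation p = 2e-05 and 1e-05, with r = 0.79 without tumours 19 and 26). Myb and Cd93 had r = 0.73 and rho = 0.60 over the same 34 (permutation p = 2e-05 and 0.00026, with r = 0.66 without tumours 19 and 26). These 3 relations therefore held among tumours with high Myb. Sox4 and Bcl7a had r = 0.69 and rho = 0.61 over 30 tumours (permutation p = 1e-05 and 0.00058, with r = 0.63 without tumours 12 and 18). Bcl7a and Cd93, in contrast, had r = 0.24 and rho = 0.23 within the larger cluster (permutation p = 0.197 and 0.221), so that this pair was called over all 39 tumours with the low Bcl7a tumours included.

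Sox4 and Cd93, neither of which split into clusters, had r = 0.51 and rho = 0.52 over 39 tumours (permutation p = 0.00102 and 0.00096), and r = 0.50 without tumours 6 and 12. Lef1 and Cd93 had r = 0.44 and rho = 0.46 (permutation p = 0.0046 and 0.00362), with r = 0.35 without tumours 3 and 31. This pair was not called, with a limma adjusted p of 0.309 for Cd93 along Lef1. In 12 tumours Myb, Sox4, Bcl7a and Cd93 were all above their medians and in 13 none was. Between these, 6 tumours had 1, 2 had 2 and 6 had 3 of the 4 above, a count that restates the correlations among the 4 genes.

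Kit and Flt3 rose together with r = 0.61 and rho = 0.39 over the 34 tumours with low Flt3 (permutation p = 0.00057 and 0.0221). That relation rested on tumours 2 and 27: without them r was 0.23, and without tumour 32 the pair was no longer called over all tumours. Myb and Flt3 had r = -0.70 and rho = -0.43 over 29 tumours (permutation p = 7e-05 and 0.0200) and r = -0.47 without tumours 12 and 27, and were not called over all 39. Sox4 and Flt3 had r = -0.52 and rho = -0.41 over 34 (permutation p = 0.00137 and 0.0170), and r = -0.53 without tumours 6 and 12. Bcl7a and Flt3 had r = -0.54 and rho = -0.41 over 29 (permutation p = 0.00237 and 0.0287), and r = -0.36 without tumours 21 and 27. These relations with Flt3 thus also ran among tumours in which Flt3 was low. Cd93 and Flt3 had r = -0.27 and rho = -0.30 over 34 (permutation p = 0.118 and 0.0883), and r = -0.44 without tumours 8 and 23. Bcl7a and Kit had r = -0.33 and rho = -0.26 over 30 (permutation p = 0.0736 and 0.164), and r = -0.07 without tumours 22 and 27.

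Over the 32 tumours without those that stood apart, 6 pairs were called: Myb with Sox4, Bcl7a and Cd93, Bcl7a with Kit and Flt3, and Kit with Flt3. With marker scores of T cells, macrophages, erythroid cells and fibroblasts as covariates 4 were called, Myb with Bcl7a and Cd93, and Cd93 with Bcl7a and Flt3. The pair of Myb with Bcl7a and that of Myb with Cd93 were called in all 3 fits. Leaving out tumour 2 ended the call for Bcl7a with Kit. Leaving out tumour 5, 19 or 26 ended it for Bcl7a with Flt3, and tumour 5 also ended it for Cd93 with Flt3.

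**Figure D3:**
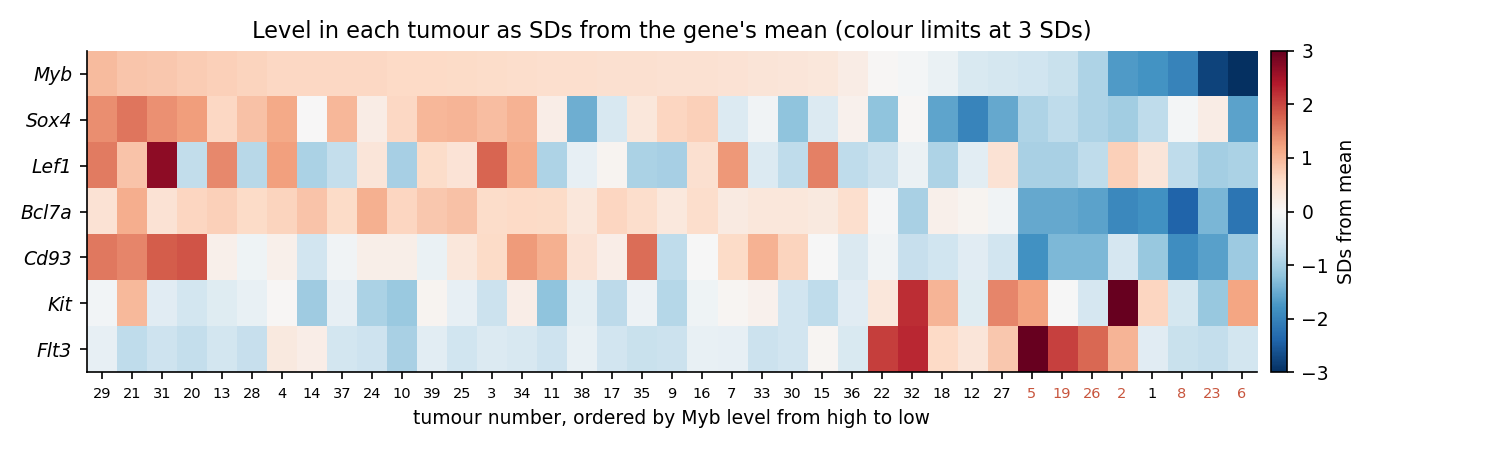
Each of the 39 tumours as a column, ordered by Myb from high to low, and each of the 7 progenitor genes as a row, coloured by SDs from the gene's mean (limits at 3 SDs, numbers in red for the 7 tumours that stood apart). Sox4, Bcl7a and Cd93 are mostly above their means on the left with Myb, and the 5 Flt3-high tumours (5, 19, 22, 26 and 32) lie toward the right, where Myb is at 10.98 or below.

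Tumours high in Myb were high in precursor B cell genes and in genes of dividing cells, and low in macrophage genes. Of the 15 precursor B cell genes measured, 10 rose along Myb and 1 fell, with a median slope of 0.62 against -0.0063 over all genes. Vpreb3, which assists assembly of the pre-B cell receptor, rose by 2.13 ± 0.14 (SE) per SD of Myb (limma adjusted p = 2.33e-15), from 5.48 in tumour 8 to 12.63 in tumour 14. Bach2, a repressor active in B cell development, rose by 1.63 ± 0.16 (limma adjusted p = 4.73e-11), and Rag1, which cuts immunoglobulin genes for recombination, by 1.13 ± 0.35 (limma adjusted p = 0.00847). In the 32 tumours 7 of the 15 rose and none fell. Vpreb3 rose there by 1.10 (limma adjusted p = 2.54e-09), while Rag1 had a slope of 0.71 with an adjusted p of 0.247.

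All 17 genes of the G2 and M phases rose along Myb, with a median slope of 0.52, and all 17 did so in the 32 tumours. Plk1, a mitotic kinase, rose by 0.63 ± 0.07 (SE, limma adjusted p = 1.77e-09), and Mybl2, the family member that acts with the mitotic gene programme, by 0.59 ± 0.08 (limma adjusted p = 4.1e-08). Mybl1, the third family member, had a slope of -0.03 (limma adjusted p = 0.922). Myc itself rose by 0.52 ± 0.09 along Myb (limma adjusted p = 9.3e-06) and by 0.24 in the 32 tumours (limma adjusted p = 0.0058). Of 12 genes of the Myc network, 8 rose and none fell, with 6 rising in the 32 tumours. Of 16 BAF complex genes 11 rose, among them Smarca4, the ATPase of the complex (0.51 ± 0.05, limma adjusted p = 4.5e-10), and 1 fell, Smarca2, the alternative ATPase (-0.35). Over the 32 others 9 rose and none fell, with Smarca2 at -0.22 (limma adjusted p = 0.133).

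Which antigen presentation genes were called along Myb depended on the tumours included. Over 39 tumours 1 of the 9 MHC class II genes, H2-Ob, rose along Myb (0.68 ± 0.23, limma adjusted p = 0.0141) and none fell. Over the 32 tumours all 9 fell: H2-Ob, whose slope changed sign (-0.47, limma adjusted p = 0.025), H2-DMa, part of the peptide loading enzyme, with slopes of -0.29 over 39 and -0.79 over 32 (limma adjusted p = 0.314 and 0.00056), and Cd74, the invariant chain, with slopes of -0.22 and -0.71 (limma adjusted p = 0.403 and 0.00119). Mature B cell genes went from 5 higher and 6 lower of 18 over all tumours to 12 lower and none higher in the 32. Ms4a1, which encodes CD20, had a slope of 1.06 ± 0.37 (limma adjusted p = 0.0197) over 39 tumours and of -0.77 (limma adjusted p = 0.0383) over 32. Tnfrsf13c, the BAFF receptor, went from 1.16 ± 0.23 to -0.41 (limma adjusted p = 6.98e-05 and 0.0112).

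Among the 34 tumours of the larger Myb cluster 11.1% of all genes were higher and 10.3% lower along Myb. There 13 of the 17 G2 and M genes rose. Of the 9 MHC class II genes 8 fell, of the 18 mature B cell genes 8 fell, and no gene of either list rose. Of 16 macrophage genes 2 rose and 9 fell along Myb over 39 tumours, among them Itgam (-1.65 ± 0.20), an integrin of myeloid cells, whose slope in the 32 tumours was -0.17 (limma adjusted p = 0.54). With the scores of T cells, macrophages, erythroid cells and fibroblasts as covariates 13.9% of all genes were higher and 16.8% lower along Myb, and 15 of the 17 G2 and M genes and 6 of the 15 precursor B cell genes rose. Of 10 cytokine receptor and ligand genes related to Kit and Flt3, 7 fell along Myb and none rose (4 fell in the 32 tumours), led by Csf2rb, the shared chain of the IL-3 and GM-CSF receptors (-1.17 ± 0.16). Of the genes most like Myb in pattern, Ezh2, the histone methyltransferase of a Polycomb complex, rose by 0.63 per SD and had r = 0.85 with Myb over the 34 tumours of its larger cluster (rho = 0.79). Batf3, a factor of dendritic and activated lymphoid cells, had r = -0.85 and rho = -0.62 there and reached 11.94 in tumour 6, where Myb was lowest.

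Antigen presentation genes fell along Sox4. Of the 9 MHC class II genes 8 fell along Sox4 and none rose, both over 39 and over 32 tumours, with a median slope of -0.67 against 0.0089 over all genes. Cd74 ranged from 8.92 in tumour 16 through a median of 11.96 to 14.07 in tumour 2 and fell by 0.79 per SD of Sox4 (slope -0.79 ± 0.15, SE, limma adjusted p = 0.0013). Tumours 6, 8 and 23 lay below the others of like Sox4. H2-DMa had a slope of -0.87 ± 0.17 (limma adjusted p = 0.00198) and H2-DMb2, its partner chain, of -0.87 ± 0.24 (limma adjusted p = 0.0211).

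Of the 18 mature B cell genes 9 fell and none rose along Sox4, and 12 fell in the 32 tumours. They included Fcmr, the Fc receptor for IgM (-1.13 ± 0.35, limma adjusted p = 0.034), Gpr183, which guides B cells within follicles (-0.99 ± 0.21, limma adjusted p = 0.00312), and Btla, an inhibitory receptor (-0.89 ± 0.15, limma adjusted p = 0.000546). Of the 15 precursor B cell genes 4 rose and none fell, Vpreb3 by 1.02 ± 0.33 (limma adjusted p = 0.0403). In the 32 tumours 2 rose, and Vpreb3 had a slope of 0.46 (limma adjusted p = 0.174). No gene of 6 related SOX genes was called in limma (0 at an unadjusted p under 0.05): Sox11 had a slope of 0.01 (limma adjusted p = 0.747) and Sox12 of -0.06 (limma adjusted p = 0.80). Over all genes 5.4% were higher and 4.86% lower, so 0 of 6 is near that share. Sox11 (mean 4.18, highest 4.46), Sox8 (mean 3.41), Sox5 (5.06) and Sox6 (5.23) were dim, unlike Sox12 (6.88) and Sox13 (6.10). The Sox11 probe sets also disagreed (lowest r of -0.26). No conclusion on these relatives is drawn. Of the 14 pan B cell genes none was called (2 at an unadjusted p under 0.05 in limma).

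The genes most like Sox4 were Mex3a, an RNA-binding protein gene (r = 0.79, rho = 0.80, n = 39), Zfp606 (r = 0.76, rho = 0.78) and the kinase gene Abl1 (r = 0.75, rho = 0.72). The lymphocyte surface gene Cd52 ran opposite (r = -0.76, rho = -0.76), from 9.35 to 14.17. These were the highest and lowest correlations of 18192 and are a description of the pattern. T cell and macrophage marker scores moved with Sox4 (r of -0.39 and -0.42 with its level). With the same marker scores and those of erythroid cells and fibroblasts as covariates 0.11% of all genes were lower along Sox4, none of the 9 MHC class II genes was called in limma (8 at an unadjusted p under 0.05, with a median slope of -0.43) and 1 of the 18 mature B cell genes was lower.

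**Figure D4:**
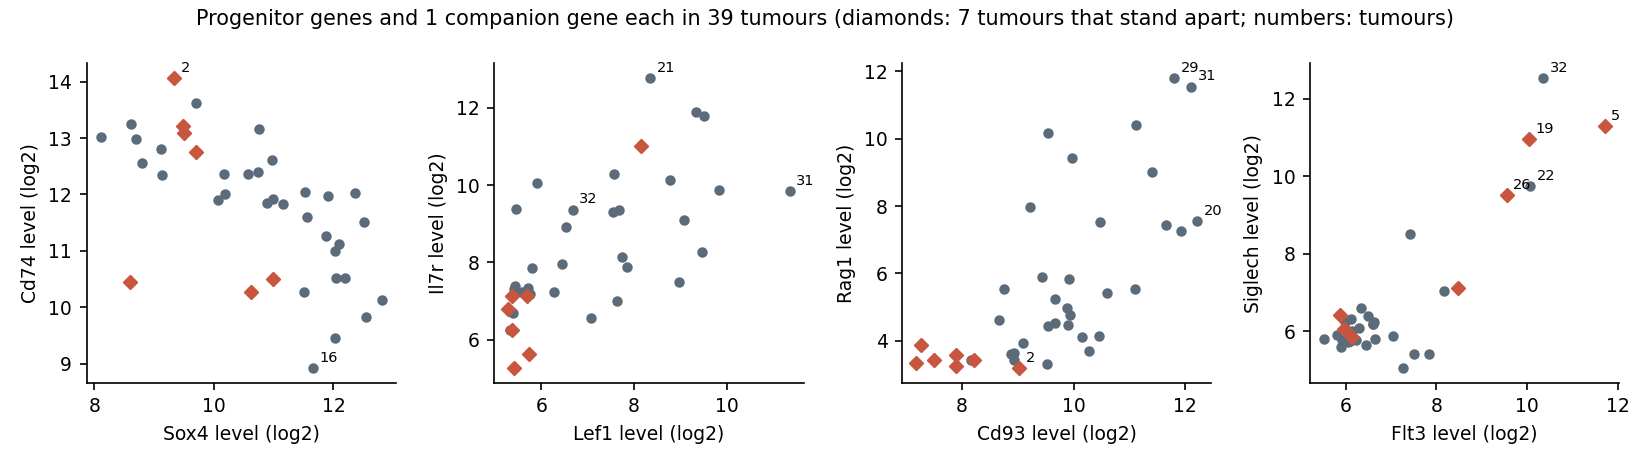
Levels (log2) of 4 progenitor genes on the horizontal axes against 1 companion gene each on the vertical axes in 39 tumours, with the 7 tumours that stood apart as diamonds and some tumours numbered. Cd74 falls along Sox4 (slope -0.79 per SD), the tumour with the most Il7r (12.77) has Lef1 at 8.35, Rag1 is above 9 only where Cd93 is above 9, and the 5 tumours with Flt3 above 9.55 have the highest Siglech.

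Lef1 had few companions, and the interleukin 7 receptor led them. Il7r, the receptor that early B cells need for growth, rose by 1.18 ± 0.21 (SE) per SD of Lef1 (limma adjusted p = 0.0200). It ranged from 5.25 in tumour 6 through a median of 7.85 to 12.77 in tumour 21, and had r = 0.66 and rho = 0.73 with Lef1 over 39 tumours. Tumour 21, with the highest Il7r, had Lef1 at 8.35, and tumour 31, with the highest Lef1, had Il7r at 9.85. In the 32 tumours the slope was 1.00 with an adjusted p of 0.177 in limma, so the call was lost.

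In all, 7 genes rose and 3 fell along Lef1, and 1615 had an unadjusted p under 0.05 in limma. The others named by likeness were Dgka, a diacylglycerol kinase of lymphocytes (r = 0.65, rho = 0.60), and Erlin1 (r = -0.73, rho = -0.66). No other list had a called member in limma. Of the 15 precursor B cell genes 7 had an unadjusted p under 0.05, with a median slope of 0.37 against -0.0044 over all genes, and Rag1 had a slope of 0.93 ± 0.37 (limma adjusted p = 0.445). Dntt, the polymerase of early lymphocytes, had a slope of 0.15 (limma adjusted p = 0.497) and never exceeded 6.19. Of the 16 T cell genes, 2 had an unadjusted p under 0.05, although Lef1 is also a T cell gene. The 3' to 5' difference of the array's control transcripts, a sign of RNA quality, had r = 0.41 with Lef1. With it and the poly-A controls as covariates 3 genes were called along Lef1.

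B cell genes and BAF complex genes rose along Bcl7a. Vpreb3 rose by 2.19 ± 0.11 (SE) per SD of Bcl7a (limma adjusted p = 2.72e-17), and by 1.07 in the 32 tumours. Of the 15 precursor B cell genes 8 rose and 1 fell, and of the 14 pan B cell genes 9 rose and none fell. Without the 7 tumours 6 and 4 rose, and none of either list fell. Those 7 were chosen in part by the pan B cell score, so leaving them out narrows the range of that list. Of the 16 genes of the BAF list 12 rose and 1 fell (8 and 0 in the 32 tumours), with Smarca4 rising by 0.50 ± 0.06 (limma adjusted p = 3.7e-09). Of its close relatives, Bcl7b rose by 0.12 ± 0.04 (limma adjusted p = 0.0207) and Bcl7c by 0.17 ± 0.05 (limma adjusted p = 0.00577), and neither was called in the 32 tumours (limma adjusted p = 0.199 and 0.757).

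Mature B cell and class II genes again depended on the tumours included. Along Bcl7a 4 mature B cell genes rose and 6 fell of 18 over 39 tumours, while 9 fell and none rose over 32. Of the 9 class II genes 1 rose over 39, and 8 fell over 32, H2-Oa with slopes of -0.42 (limma adjusted p = 0.102) and -0.80. Within the 30 tumours of the larger Bcl7a cluster 1.57% of all genes were higher and 2.46% lower, against which 11 of the 18 mature B cell genes and 6 of the 9 class II genes were lower. The 17 G2 and M genes all rose over 39 and over 32 tumours, but none was called within the larger cluster in limma (2 at an unadjusted p under 0.05). Of 16 T cell genes 7 fell and none rose over 39 tumours, and 10 fell over 32, with Cd5 at -1.08 and Cd28 at -0.89.

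The genes of the recombination enzyme rose along Cd93. Rag1 ranged from 3.18 in tumour 2 through a median of 4.63 to 11.81 in tumour 29, and rose by 1.72 ± 0.29 (SE) per SD of Cd93 (limma adjusted p = 7.5e-05). Its partner Rag2, chosen after its values were seen, rose by 1.01 ± 0.18 (limma adjusted p = 0.000127). In the 32 tumours, where 0.676% of all genes were higher along Cd93, both were still called, with slopes of 1.60 and 1.09 (limma adjusted p = 0.0257 and 0.0106). All tumours with Rag1 above 9 also had Cd93 above 9, whereas several tumours with high Cd93 had little Rag1.

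Of the 15 precursor B cell genes 9 rose and none fell along Cd93, and 4 rose in the 32 tumours. Vpreb3 rose by 1.78 ± 0.23 (limma adjusted p = 5.15e-06) and by 0.69 in the 32 (limma adjusted p = 0.0467). Il7r rose by 0.78 ± 0.26 (limma adjusted p = 0.0224), with a slope of 0.45 in the 32 (limma adjusted p = 0.44). Of 4 genes listed as relatives or partner of Cd93, 1 rose: Thbd, which encodes thrombomodulin, by 0.59 ± 0.16 (limma adjusted p = 0.00791). Its slope in the 32 was 0.52 (limma adjusted p = 0.102). Pan B cell genes rose in 7 of 14 cases over all tumours and in none over 32 (limma, 3 at an unadjusted p under 0.05). The tumours left out were chosen in part by the score of these same 14 genes, which narrows their range. G2 and M genes rose in 16 of 17 cases and then in 3 of 17.

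The genes most like Cd93 were Pde2a, a phosphodiesterase gene (r = 0.81, rho = 0.81, n = 39), and Arntl, a clock transcription factor (r = 0.80, rho = 0.76). Ptpn1, a tyrosine phosphatase gene, ran opposite (r = -0.83, rho = -0.81). Pde2a was also among the 5 genes most like Sox4 (r = 0.75, rho = 0.75), and ranged from 9.99 to 13.68. No class II gene was called along Cd93 (1 of 9 at an unadjusted p under 0.05 in limma).

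T cell genes and the gene of its own ligand rose along Kit. Of the 16 T cell genes 13 rose and none fell along Kit, led by Cd3g, a chain of the T cell receptor complex (1.06 ± 0.26, SE, limma adjusted p = 0.00276). Kitl, which encodes stem cell factor, ranged from 5.96 in tumour 15 through a median of 7.38 to 9.98 in tumour 2, the tumour with the highest Kit. It rose by 0.44 ± 0.08 per SD of Kit (limma adjusted p = 0.000312), with a slope of 0.19 in the 32 tumours (limma adjusted p = 0.102). Cd34, a surface protein of progenitors and vessels, rose by 0.27 ± 0.09 (limma adjusted p = 0.0256), with a slope of 0.19 in the 32 (limma adjusted p = 0.0684). Myc fell by 0.53 (slope -0.53 ± 0.09, limma adjusted p = 7.12e-05), and in the 32 tumours its slope was -0.27 (limma adjusted p = 0.0028).

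Mast cells are known for KIT. Of 10 mast cell and basophil genes 0 were called along Kit in limma, and 0 had an unadjusted p under 0.05. Over all genes 10.0% were higher and 12.1% lower, so 0 of 10 is near that share. Several of the 10 were dim, such as Fcer1a (mean 3.36) and Ms4a2 (mean 3.41), and no conclusion on mast cells is drawn. Cpa3, a mast cell protease, had a slope of 0.11 ± 0.13 (limma adjusted p = 0.594) and was highest, at 7.56, in tumour 6. Of 21 stem and progenitor factors 4 rose and 1 fell, and of 8 early T progenitor genes 4 rose. Mature B cell genes rose in 9 of 18 cases, plasmacytoid dendritic cell genes in 8 of 12 with 1 lower, and endothelial genes in 7 of 13, among them Plvap (0.36) and Kdr (0.32). All 17 G2 and M genes fell, and of 14 pan B cell genes 1 fell and none rose. Without the 7 tumours 12 T cell, 7 mature B cell, 8 plasmacytoid dendritic cell and 4 endothelial genes rose along Kit, and 4 of the 17 G2 and M genes fell. Among the pan B cell genes lower there were Cd79a (-0.36, limma adjusted p = 0.000335) and Fcrla (-0.45, limma adjusted p = 0.000603). Blnk, Syk and Spib had positive slopes there that were not called.

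Much of the pattern along Kit over 39 tumours came from tumour 2. Without it 2.25% of all genes were higher and 0.731% lower along Kit. Then 7 T cell genes, 4 plasmacytoid dendritic cell genes, 1 mature B cell gene and 1 of the 10 ligand and receptor genes rose, and none of the 17 G2 and M genes was called in limma (5 at an unadjusted p under 0.05). The T cell marker score moved with Kit (r = 0.74, rho = 0.54, n = 39) and ranged over the tumours from -1.02 in tumour 10 to 2.47 in tumour 2. With that score and those of macrophages, erythroid cells and fibroblasts as covariates 1 gene was called along Kit in all. The genes most like Kit included Itgax, which encodes the dendritic cell integrin CD11c (r = 0.82, rho = 0.56), and Il2rb, an interleukin 2 and 15 receptor chain of T and NK cells (r = 0.81, rho = 0.59). Wdr12, a ribosome assembly factor gene, ran opposite (r = -0.77, rho = -0.50).

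Flt3-high tumours carried genes of plasmacytoid dendritic cells and the CD8 chain gene Cd8b1. Siglech, a lectin of plasmacytoid dendritic cells, rose by 1.53 ± 0.13 (SE) per SD of Flt3 (limma adjusted p = 1.39e-10) and by 1.14 in the 32 tumours. Its levels in the 5 Flt3-high tumours were 11.30 in tumour 5, 10.96 in tumour 19, 9.75 in tumour 22, 9.52 in tumour 26 and 12.54 in tumour 32, against a median of 5.99 over all 39. Cd8b1, a chain of the T cell coreceptor CD8, rose by 2.25 ± 0.23 (limma adjusted p = 2.92e-09) and by 1.74 in the 32 (limma adjusted p = 5.9e-05). It was at 13.21, 10.84, 11.21, 11.10 and 13.33 in tumours 5, 19, 22, 26 and 32, with a median of 5.90 over all. Cd7, an early T and NK cell surface gene, was at 12.33, 11.01, 9.94, 10.98 and 11.69 in the same tumours, with a median of 5.83. For all 3 genes the 5 Flt3-high tumours were far above the median tumour. Only tumours 22 and 32 of these 5 are among the 32.

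Of the 12 plasmacytoid dendritic cell genes 6 rose and none fell along Flt3, and 8 rose in the 32 tumours. Ccr9, the chemokine receptor of these cells and of thymocytes, rose by 1.21 ± 0.21, and Bst2 by 0.84 ± 0.07 (limma adjusted p = 5.97e-11). Ly6d had a slope of 0.91 ± 0.34 (limma adjusted p = 0.0725). Of the 16 T cell genes 6 rose and none fell, both over 39 and over 32, among them Cd5 (1.50 ± 0.18, limma adjusted p = 1.34e-07) and Cd3g (1.12). Class II genes rose in 8 of 9 cases over 39 tumours, H2-DMa by 0.86 ± 0.17 (limma adjusted p = 0.00068). None was called over the 32 in limma (8 at an unadjusted p under 0.05, and an adjusted p of 0.055 for H2-DMa). Within the 34 tumours of the larger Flt3 cluster, where 4.16% of all genes were higher, 4 class II, 12 T cell and 10 mature B cell genes rose, so that lesser differences in Flt3 also ran with these lists.

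Some precursor and pan B cell genes went the other way, but mature B cell genes did not. Of 18 mature B cell genes 2 rose and none fell along Flt3, with a median slope of 0.28. Of 15 precursor B cell genes 4 fell and none rose along Flt3, and of 14 pan B cell genes 3 fell, with 5 falling in the 32 tumours. Ebf1, a factor that sets B cell fate, fell by 0.98 (slope -0.98 ± 0.16, limma adjusted p = 5.03e-05), with a slope of -0.37 in the 32 (limma adjusted p = 0.026). Gpr183, chosen after its values were seen, rose by 1.36 (limma adjusted p = 8.95e-09). No G2 and M gene was called (0 of 17 in limma, and 0 at an unadjusted p under 0.05). Kitl had a slope of 0.14 (limma adjusted p = 0.382), and the Flt3 ligand gene was not analysed here. Of the genes most like Flt3, Xkrx had r = 0.84 and rho = 0.48 within the 34 tumours of the larger cluster, and Bst2 r = 0.60 and rho = 0.24. The T cell score had r = 0.60 with Flt3 and the pan B cell score r = -0.45, and both are given as a description. With marker scores of T cells, macrophages, erythroid cells and fibroblasts as covariates 4.53% of all genes were higher and 2.42% lower along Flt3. Then 4 of the 12 plasmacytoid dendritic cell genes rose, 7 of the 14 pan B cell genes fell, and no class II gene was called (limma, 1 of 9 at an unadjusted p under 0.05). Of the 16 T cell genes 3 rose and 1 fell. The T cell score is the mean over these 16 genes, so their slopes must balance out in that fit. The T cell counts there are therefore no result about Flt3.

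**Figure D5:**
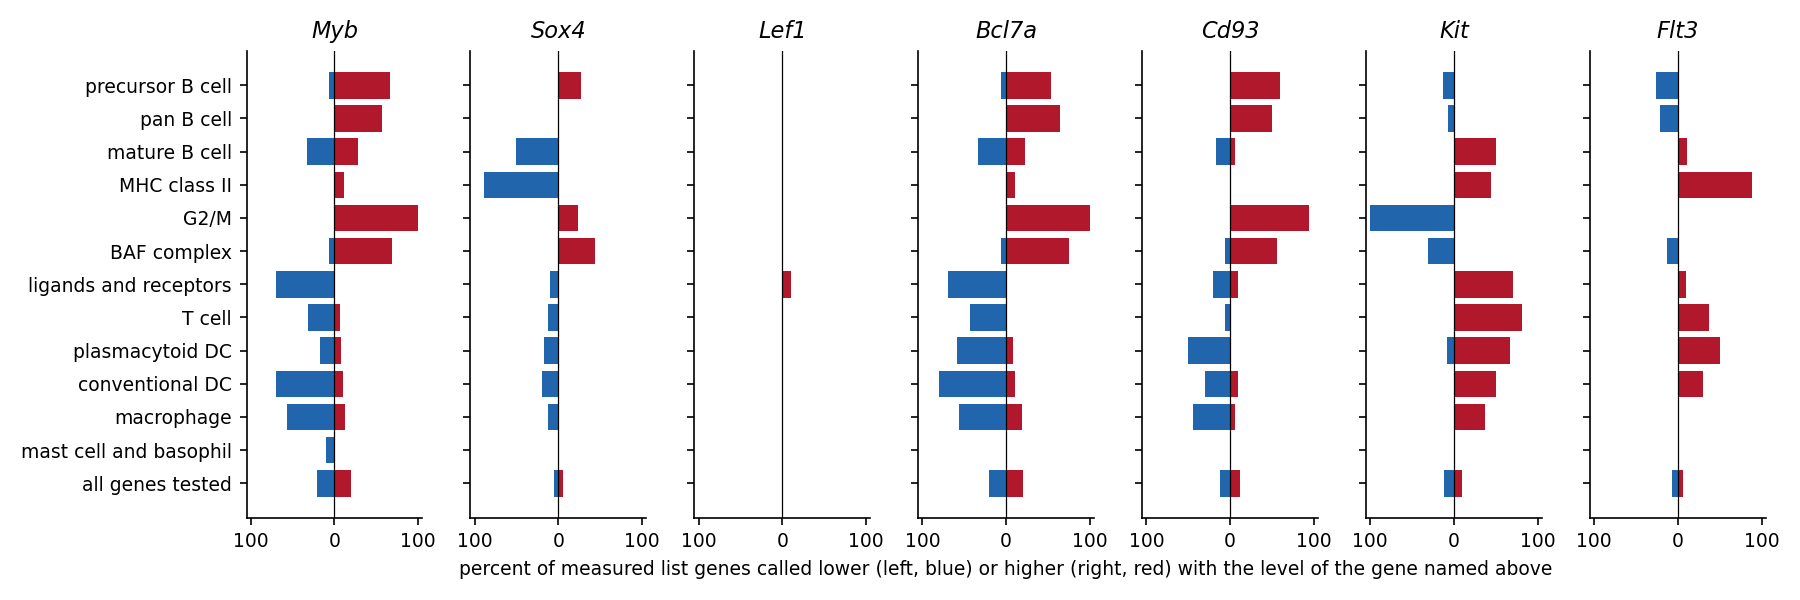
For each progenitor gene (panels) and 12 lists of genes (rows), the percent of measured list genes called higher (red bars to the right) or lower (blue bars to the left) along its level in limma at an adjusted p under 0.05 over 39 tumours, with all genes tested in the bottom row. Precursor B cell and G2 and M genes rise along Myb, Bcl7a and Cd93, class II genes fall along Sox4 in 8 of 9 cases and rise along Flt3 in 8 of 9, T cell genes rise along Kit in 13 of 16, and Lef1 has 1 called list gene.

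Whether a member followed its own chromosome was asked by fitting each gene along the median deviation of the other genes on its chromosome, a stand-in for gains and losses of whole chromosomes. Over 17404 autosomal genes 14.4% were called. None of the 7 members was: Bcl7a, on chromosome 5, came closest (slope 0.44 ± 0.20, SE, limma adjusted p = 0.141), followed by Myb on chromosome 10 (slope 0.40 ± 0.26, limma adjusted p = 0.365). Kit and Flt3, which lie on chromosome 5 as well, had slopes of -0.03 and -0.02 with SEs of 0.13 and 0.24. Sox4 (chromosome 13), Lef1 (chromosome 3) and Cd93 (chromosome 2) had slopes between -0.01 and 0.02.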

How the data were processed

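Lymphoma RNA from 39 Eµ-myc tumours was hybridised to 1-colour Affymetrix arrays of 45101 probe sets. The values are log2 expression deposited by the authors, made with RMA in affy per the submitters' processing notes. The version, the filters and the set of arrays normalised together were not given in the sources used here. RMA scales all arrays to 1 distribution, so a change shared by most genes cannot be seen, and low values compress. Probe sets with 1 gene in the platform annotation (34945) were kept. Those with several genes (932), none (9160) and 64 controls were left out. The probe set of highest mean stood for each of 18193 genes, 18032 of them matched to RefSeq by Entrez ID.

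Every gene was fitted along each member's level divided by its SD with limma 3.58.1 (lmFit, eBayes with trend, 2-sided, R 4.3.3), with Benjamini-Hochberg adjustment over all other genes and a threshold of 0.05. The fit was tested on simulated data. Splits of a level into clusters came from mclust 6.1.1. Pearson r and the 2-sided permutation p (100000 draws) were computed with numpy 2.4.6, and Spearman rho with scipy 1.17.1. The 21 pairs were called from limma in both directions, so their permutation p are raw. The members and the 25 gene lists were chosen with earlier results of these data known. Named are the 7 members, up to 5 genes of highest and 3 of lowest correlation per member among those called, up to 4 genes of largest slope per list, and set relatives and ligands. Genes without a settled name, or whose probe sets disagreed (r under 0.2), were passed over. Alternatives were the mean of all probe sets, only genes above the median level, leaving out the 7 tumours that stood apart (pan B cell score below -1, or Myc below 10), other-cell or RNA quality covariates, normal scores, no variance trend, an own-chromosome covariate, and, chosen after seeing the data, the larger cluster and each tumour left out. The number of arrays limits the precision. Scan or extraction batches were not given in the labels.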

Additional observations from a re-analysis of the deposited data

How the results depend on the processing

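Over 39 tumours 7498 genes were called along Myb, 1866 along Sox4, 10 along Lef1, 7330 along Bcl7a, 4438 along Cd93, 4034 along Kit and 2301 along Flt3, and 11 pairs. Without the 7 tumours that stood apart these were 4114, 904, 3, 3855, 215, 2318 and 1336, and 6 pairs. With other-cell scores they were 38 along Sox4, 3 along Lef1, 1602 along Cd93, 1 along Kit and 1266 along Flt3, and 4 pairs. With RNA quality covariates they were 1082 along Sox4 and 3 along Lef1. With normal scores they were 1163 along Kit and 686 along Flt3, and 7 pairs. With only genes above the median level 1053 were called along Flt3, from fewer genes tested. Within the larger cluster 3894 were called along Myb, 733 along Bcl7a and 1292 along Flt3, from fewer tumours. Leaving out 1 tumour at a time gave 1212 to 2450 along Sox4 (lowest without tumour 6), 1 to 18 along Lef1 (without tumours 13 and 18) and 543 to 5055 along Kit (lowest without tumour 2), and 9 to 12 pairs. The count along Lef1 moved by over 1.5 times without tumour 4, 5, 7, 9, 13, 18, 19, 23, 29, 31 or 34.

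Slopes that changed sign with other-cell scores were those along Kit of Myb (0.0181), Sox4 (0.183), Cd93 (0.152), Cd3g (-0.347), Cd28 (-0.154), Cd3d (-0.146), Cd5 (-0.603), Csf2rb (-0.245), Cd8b1 (-0.148) and Cpa3 (-0.104), those of Kit along Myb (0.00659), Sox4 (0.0627) and Cd93 (0.0466), and those of H2-Oa along Myb (0.00118), Sox11 along Sox4 (-0.0136) and Kitl along Flt3 (-0.079). Without the 7 tumours H2-Ob (-0.472), Tnfrsf13c (-0.412) and Ms4a1 (-0.774) turned along Myb, the last also within the larger cluster (-0.0675). Lef1 along Flt3 turned with normal scores (0.0984) and within the larger cluster (0.317), and Mybl1 along Myb with RNA quality covariates (0.0401). Cd3g, Cd28, Cd3d and Cd5 are themselves part of the T cell score. With that score as a covariate the slopes of its genes must balance out, so some turn negative by construction. The cause of the other changes was not tested. Of 172 called slopes of named genes 39 lost the call without the 7 tumours, and 3 more changed sign. With other-cell scores 69 lost the call, and 6 more changed sign, those of Cd3g, Cd28, Cd3d, Cd5, Csf2rb and Cd8b1 along Kit. In that fit 1 gene was called along Kit in all. The call was lost by 19 with normal scores, 9 with RNA quality covariates, 2 with the mean of all probe sets and 1 with the own-chromosome covariate. All 172 kept it without the variance trend. No paired analysis was possible because the tumours form 1 group.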

Other observations

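The 5 named genes of highest correlation with Bcl7a (Vpreb3, Chchd10, Akap12, Mdm1 and Pwwp3a) all lie on chromosome 10, while Bcl7a lies on chromosome 5. Of the 100 genes of highest correlation 21 lie on chromosome 10, which holds 4.73% of all genes measured, and 13 on its own chromosome 5, which holds 6.17%. Along Myb, itself on chromosome 10, 12 of the 100 lie there and 18 on chromosome 11, which holds 7.93% of all genes. Chchd10, a mitochondrial protein gene, ranged from 10.62 to 13.72, and Akap12, a scaffold protein gene, from 5.73 to 12.47. These counts were chosen after the values were seen, and no test was made.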
